A study of Mus musculus with 93 samples.

Results

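The liver transcriptome of A/J mice, an inbred laboratory strain of Mus musculus, was compared after a western-style diet (WD) and a matched control diet (CD). The members were chosen by the strain label A/J, which gave 11 of the 93 liver libraries of the series, 5 from CD-TN mice and 6 from WD-TN mice. TN stands for thermoneutrality, because the housing was kept at 30 °C once the animals were 6 weeks old. The mice were males without an engineered allele, changed to their diet a week later, at 7 weeks, and were 24 weeks old at the end, after 17 weeks on the diet. WD gave 40% of its calories as fat, 17% as protein and 43% as carbohydrate, and CD gave 10%, 17% and 73%. The labels also give a cohort number, with CD mice 1 and 2 and WD mice 1 to 4 in cohort 2, and CD mice 3 to 5 and WD mice 5 and 6 in cohort 3. Each library is 1 mouse, and mice are numbered within a diet in the order of deposition. The other 82 libraries come from C57BL/6J, DBA/2J, 129S1/SvImJ, CAST/EiJ, PWK/PhJ and WSB/EiJ males on the same diets.

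A fatty diet reaches the liver in several ways. Dietary and stored sterols are sensed in the endoplasmic reticulum, where SCAP and INSIG proteins hold or release the transcription factor SREBP2, which drives the genes of cholesterol synthesis and LDL uptake, while the oxysterol receptor LXR drives sterol export. Fatty acids are taken up, made or stored under the control of SREBP1c and of PPARG, a factor that is low in healthy hepatocytes and high in fat cells. The pulsatile growth hormone pattern of males keeps a set of liver genes high in that sex, including major urinary proteins (Mup genes) and Serpina1e. Livers that store fat can in addition recruit macrophages and activate stellate cells, which lay down collagen.

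Sequencing depth was 41232966 to 49894856 reads on genes in the A/J libraries. The complement gene Hc, which A/J and DBA/2J are known to carry in a defective form, had a mean of 204.3 CPM (read count scaled to library size) in A/J and between 350.2 CPM in DBA/2J and 1258.2 CPM in the other strains, so it was lowest in the libraries labelled A/J. The transhydrogenase gene Nnt, deleted in part in C57BL/6J, stood at 195.6 CPM in A/J against 70.6 CPM in C57BL/6J. Hepatocyte markers were high in every library, with albumin (Alb) alone between 110473.7 and 184302.1 CPM. The scaling factor that corrects for the makeup of each library (TMM) was 0.910 ± 0.0265 in CD and 0.996 ± 0.0165 in WD mice (SD, n = 5 and 6; two-sided exact permutation test, p = 0.00216, the smallest p that 462 arrangements can give, adjusted p = 0.0173 over 8 measures). RNA integrity numbers were 8.30 to 9.20 and did not differ detectably between the diets (adjusted p = 0.597, same test). WD mouse 3 stood apart from the other 10 on the third principal component, at 50.5 against at most 14.3, and list counts that moved by over 1.5 times without it are given below with and without it.

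Across 19110 genes tested, WD changed 1725 in A/J liver at an adjusted p below 0.05 (limma-voom, Benjamini-Hochberg), which is 9.03% of all genes. Of these DEGs 839 rose (4.39%) and 886 fell (4.64%). The median change of all genes was -0.002 on the log2 scale, the median size of a DEG's change was 0.50, and 233 genes rose and 136 fell by 2-fold or more. Upper-quartile scaling, in place of TMM, moved the split to 961 higher and 668 lower, or 59.0% higher against 48.6%. With cohort within strain as a covariate 1457 genes passed, 698 higher and 759 lower. The first principal component of the 11 mice held 26.0% of the variance and separated the diets without overlap, with CD mice between -36.1 and -26.3 and WD mice between 3.7 and 39.1. WD mice 5 and 6, both of cohort 3, had the lowest WD values, at 14.1 and 3.7. The 5 CD and 6 WD mice did not overlap for 1545 genes (8.08%), and for 968 of the DEGs. Values below are CPM after TMM scaling, given as mean ± SD where summarised (n = 5 CD and 6 WD mice), and changes are log2 fold changes of WD over CD with their standard error (SE). Counts in short lists also moved when other single mice were left out, with values given beside the lists. The counts of DEGs in lists stand beside 9.03% of all genes in either direction, 4.39% higher and 4.64% lower. A count in a short list can lie near these shares.

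**Figure D1:**
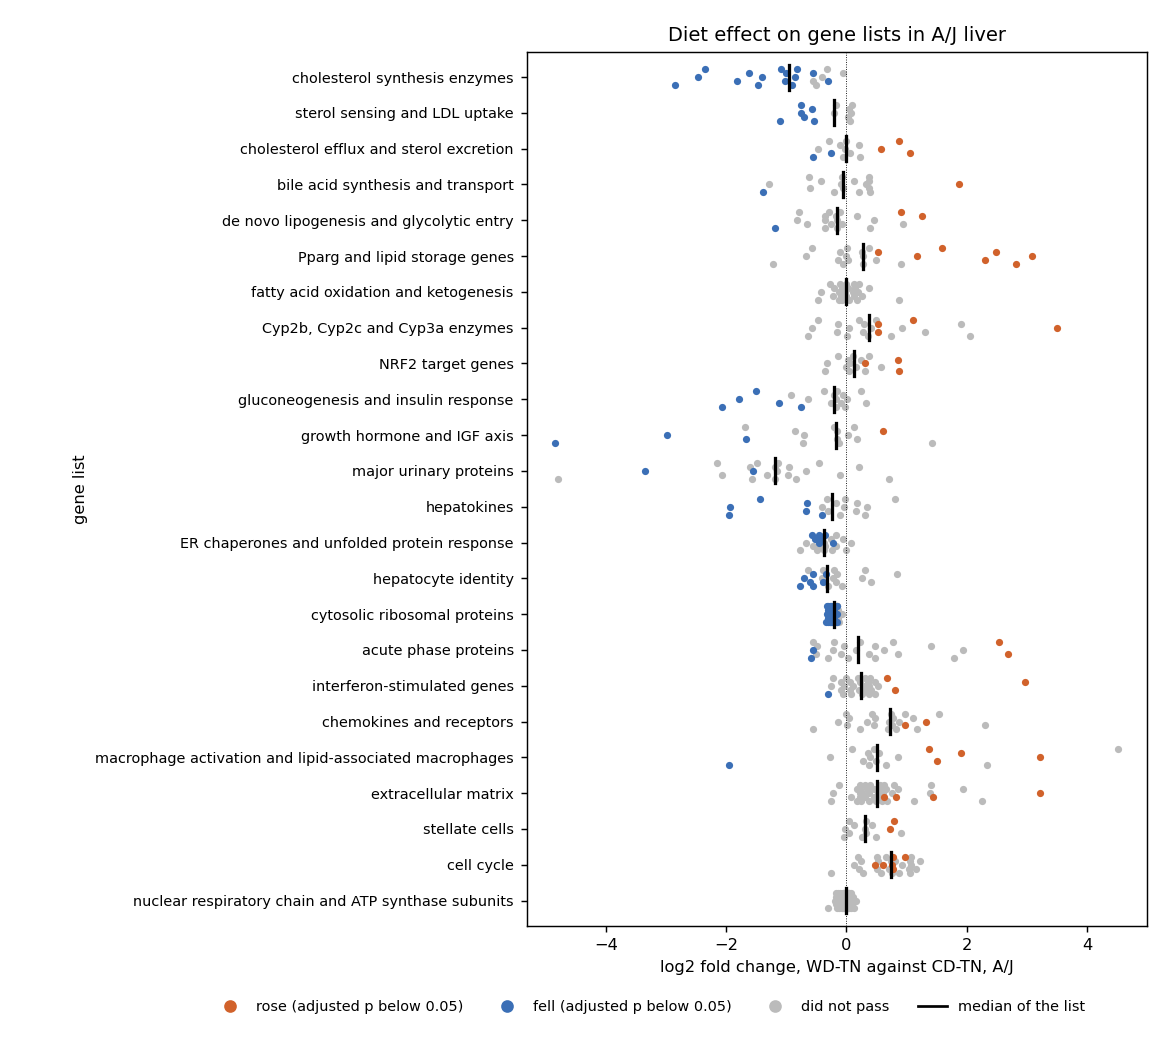
Changes of gene lists in A/J liver. Each point is a tested gene at its log2 fold change of WD over CD, orange (rose) and blue (fell) points passed an adjusted p of 0.05, and the bar marks the median of the list. Cholesterol synthesis enzymes lie to the left with a median of -0.96, and cell cycle genes to the right with a median of 0.74.

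The genes of cholesterol synthesis fell together. Of the 20 enzymes of the pathway 15 were DEGs, all lower on WD, and the other 5 were lower without passing the test. The median change of the list was -0.96, beside -0.002 for all genes, and the summed level of the pathway was 1947.9 to 2617.3 CPM in CD and 1379.3 to 1594.6 CPM in WD mice. Sqle, squalene epoxidase, which makes the first oxygenated sterol precursor (chr15:59315077-59331192, GRCm38), had 57.5, 80.4, 34.8, 40.3 and 48.4 CPM in CD mice 1 to 5, and 5.35, 6.85 and 8.42 CPM as the lowest, median and highest of the WD mice. The lowest CD mouse thus lay above every WD mouse, with a 7.21-fold fall (log2 -2.85, SE 0.40, adjusted p = 2.9e-07). Cyp51, the sterol 14-demethylase, had 88.0, 117.3, 61.0, 73.7 and 87.5 CPM on CD and 13.1, 15.9 and 23.4 CPM (lowest, median, highest) on WD, again with no overlap (log2 -2.35, SE 0.24, adjusted p = 8.4e-12). Its exons overlap those of Akap9, and the sources used here do not say whether reads were counted by strand. Idi1, which isomerises the isoprene units, fell from 26.2 ± 7.59 to 4.68 ± 1.18 CPM (log2 -2.46, SE 0.36, adjusted p = 6.8e-07), and Mvd, the decarboxylase just before it, from 9.82 ± 3.94 to 2.61 ± 0.543 CPM (log2 -1.82, SE 0.43, adjusted p = 0.0028).

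Sterol genes are commonly reached through CCAAT boxes and sterol regulatory elements close to their start, so the promoter windows of the 3 enzymes that fell most and had an entry, and of the 1 window with the searched sterol element, are shown. Sequences are RefSeq windows on GRCm38.p6 of 300 bases, from 250 before to 50 after the annotated start, 5′ to 3′ on the strand of the gene, and capitals mark CCAAT on either strand (ATTGG on the opposite one) and TCACNCCAC on either strand.
Idi1 (chr13:8885356-8885655, plus strand): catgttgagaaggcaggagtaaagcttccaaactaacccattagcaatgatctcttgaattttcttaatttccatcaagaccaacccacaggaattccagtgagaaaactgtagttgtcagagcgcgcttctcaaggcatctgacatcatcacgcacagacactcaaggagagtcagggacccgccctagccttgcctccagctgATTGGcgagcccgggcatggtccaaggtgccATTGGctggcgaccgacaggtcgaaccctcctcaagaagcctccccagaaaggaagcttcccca
Cyp51 (chr5:4104648-4104947, minus strand): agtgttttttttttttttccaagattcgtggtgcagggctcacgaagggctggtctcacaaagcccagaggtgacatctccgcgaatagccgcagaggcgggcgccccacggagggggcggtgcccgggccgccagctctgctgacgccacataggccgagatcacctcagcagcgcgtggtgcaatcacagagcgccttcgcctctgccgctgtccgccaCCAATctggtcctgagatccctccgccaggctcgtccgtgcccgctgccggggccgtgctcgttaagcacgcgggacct
Mvd (chr8:122443373-122443672, minus strand): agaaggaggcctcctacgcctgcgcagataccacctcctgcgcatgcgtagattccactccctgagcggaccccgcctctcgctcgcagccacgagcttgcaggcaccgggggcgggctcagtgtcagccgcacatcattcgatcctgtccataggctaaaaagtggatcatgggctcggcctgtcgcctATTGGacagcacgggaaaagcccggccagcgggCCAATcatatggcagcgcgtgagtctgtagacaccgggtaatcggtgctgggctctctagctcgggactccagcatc
Hmgcs1 (chr13:119690101-119690400, plus strand): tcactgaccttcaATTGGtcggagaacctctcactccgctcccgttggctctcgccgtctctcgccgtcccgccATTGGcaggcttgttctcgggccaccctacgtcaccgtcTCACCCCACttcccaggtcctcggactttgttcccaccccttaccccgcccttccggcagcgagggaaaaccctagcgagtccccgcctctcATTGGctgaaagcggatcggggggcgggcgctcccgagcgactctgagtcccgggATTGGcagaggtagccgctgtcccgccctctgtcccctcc

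The promoter table held 15 of the 20 enzymes, with 18 windows, and Sqle was not among them. CCAAT occurred in 14 of the 18 windows (77.8%) and in 12289 of all 32851 windows of that length (37.4%). TCACNCCAC occurred in 1 of the 18 (5.56%), that of Hmgcs1, and in 408 of all windows (1.24%). Hmgcs1, an early enzyme of the pathway, was chosen after its values were seen, and it fell by 1.09 on the log2 scale (SE 0.29, adjusted p = 0.0079). A match is a description of letters in the window and not of a bound site.

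Of the 13 genes of sterol sensing and LDL uptake 6 fell and none of the others passed the test (list median -0.21). Srebf2, which encodes SREBP2, fell from 51.6 ± 8.18 to 35.2 ± 2.88 CPM without overlap (log2 -0.54, SE 0.12, adjusted p = 8.8e-04). Stard4, a carrier of cholesterol between membranes, fell by 0.75 (SE 0.17, adjusted p = 0.0013). Both genes were lower in every WD mouse than in every CD mouse. Insig1, a sterol-regulated retention protein, did the same (164.9 ± 14.6 against 99.4 ± 21.2 CPM, adjusted p = 0.035), but its call was lost when any of 8 mice was left out, with an adjusted p of up to 0.081, and with cohort within strain as a covariate (adjusted p = 0.07). On the export side, the list of 14 efflux and excretion genes had 3 that rose and 2 that fell (median -0.01), with 1 that fell when any mouse but WD mouse 3 was left out. Abcg5, which with Abcg8 forms the canalicular sterol pump, had 112.6, 126.2, 118.9, 125.3 and 101.8 CPM on CD and 186.1, 248.8 and 297.0 CPM on WD, a 2.07-fold rise with no overlap (log2 1.05, SE 0.15, adjusted p = 5.9e-07). Abcg8 rose less (log2 0.58, SE 0.18, adjusted p = 0.023) and lost its call without any of 3 mice (adjusted p of up to 0.061). The exons of both genes overlap in the annotation. Abcg1, an exporter of cholesterol to HDL, rose from 7.87 ± 0.652 to 14.8 ± 3.91 CPM (log2 0.87, SE 0.16, adjusted p = 1.5e-04). Apoa1, the main HDL protein, fell from 12744.6 ± 1737.4 to 8715.9 ± 1331.8 CPM (log2 -0.55, SE 0.11, adjusted p = 1.6e-04).

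**Figure D2:**
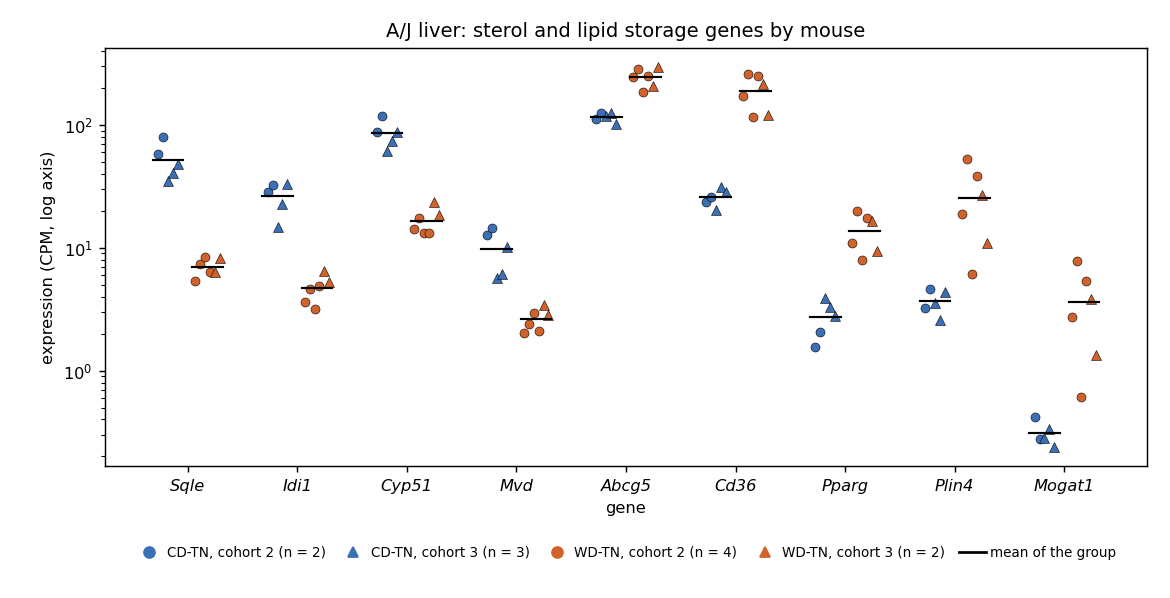
Sterol and lipid genes in each A/J mouse, in CPM on a log axis, with CD and WD side by side, cohorts by marker, and bars at the mean. Sqle, Idi1 and Cyp51 show every WD mouse below every CD mouse, and Abcg5, Cd36 and Pparg show the reverse.

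Of 17 genes of bile acid synthesis and transport 1 rose and 1 fell (median -0.05), a share near the 9.03% of all genes, and none rose without WD mouse 3. One of the pair belongs to the classical and the other to the alternative route. Cyp7a1, the rate-limiting enzyme of the classical route, had 54.3, 116.8, 237.4, 151.0 and 345.1 CPM on CD and 216.4, 653.8 and 867.2 CPM on WD. The lowest WD mouse lay within the CD range, and the rise (log2 1.87, SE 0.62, adjusted p = 0.041) was lost without any of 8 mice, with an adjusted p of up to 0.17, and in cohort 3 alone the change was 0.74 (SE 0.93, adjusted p = 0.995). Cyp7b1, of the alternative route, had 126.0, 122.2, 73.8, 94.7 and 161.9 CPM on CD and 32.4, 41.7 and 60.7 CPM on WD, with no overlap (log2 -1.38, SE 0.38, adjusted p = 0.011, or 0.23 without a filter on low counts). Outside the bile acid list, Cyp46a1, the cholesterol 24-hydroxylase best known from neurons, rose from 26.9 ± 7.98 to 72.4 ± 21.2 CPM without overlap (log2 1.42, SE 0.24, adjusted p = 1.5e-05).

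Several genes of lipid uptake and storage rose. Of 22 PPARG-linked and storage genes 7 rose and none fell (median 0.27). Cd36, the fatty acid translocase (chr5:17781690-17888801), had 23.5, 25.9, 20.2, 31.5 and 28.4 CPM on CD and 116.8, 192.2 and 261.3 CPM on WD, a 7.02-fold rise (log2 2.81, SE 0.24, adjusted p = 6.9e-15). Pparg itself had 1.57, 2.06, 3.91, 3.27 and 2.80 CPM on CD and 8.02, 13.7 and 20.0 CPM on WD, a 4.95-fold rise (log2 2.31, SE 0.39, adjusted p = 1.5e-05). Every WD mouse was above every CD mouse for both genes. Mogat1, which makes diacylglycerol, rose from 0.309 ± 0.0691 to 3.60 ± 2.65 CPM (log2 3.08, SE 0.65, adjusted p = 7.0e-04), and Plin4, a lipid droplet coat protein, from 3.67 ± 0.823 to 25.6 ± 17.4 CPM (log2 2.48, SE 0.58, adjusted p = 0.0024). The WD mice spread widely for both, and each of the pair overlaps the exons of another gene (BC035947 and Hdgfl2). Vldlr, the VLDL receptor, rose by 1.17 (SE 0.33, adjusted p = 0.012), with 1 WD mouse, at 3.38 CPM, inside the CD range. The droplet proteins most tied to fat accumulation did not rise past the test. Plin2, which coats droplets in hepatocytes, had 242.5 to 764.1 CPM on CD and 215.2 to 450.1 CPM on WD (log2 -0.68, SE 0.32, adjusted p = 0.18). Cidec, which fuses droplets, had 3.90 ± 1.21 and 5.18 ± 2.02 CPM (log2 0.38, SE 0.77, adjusted p = 0.83), and Cidea, its relative, was at or below 0.595 CPM in every mouse (adjusted p = 0.67).

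Of the 20 genes of lipogenesis and glycolytic entry 2 rose and 1 fell (median -0.16), or 2 fell without any of CD mouse 4, CD mouse 5 and WD mouse 6. Srebf1, which encodes SREBP1, rose by 0.90 (SE 0.25, adjusted p = 0.013), although CD mouse 3, at 517.4 CPM, lay within the WD range of 431.8 to 696.9 CPM, and its exons overlap those of Rai1. Acly, which feeds cytosolic acetyl-CoA to fat and sterol synthesis, moved the other way, from 458.5 ± 171.9 to 198.0 ± 53.1 CPM without overlap (log2 -1.18, SE 0.30, adjusted p = 0.0066). Fasn, the fatty acid synthase, had 712.2 ± 210.0 and 400.1 ± 116.2 CPM (log2 -0.83, SE 0.33, adjusted p = 0.1), and Scd1, the desaturase, 14396.5 ± 3753.9 and 27384.0 ± 5285.1 CPM (log2 0.94, SE 0.33, adjusted p = 0.056). Neither passed the test. No gene of the 26 of fatty acid oxidation and ketogenesis was a DEG with limma-voom (3 had an unadjusted p below 0.05, and edgeR and DESeq2 gave 1 and 2), nor any of the 10 Cyp4a and Cyp4f hydroxylases (5, with 0 and 1 by the same tools, list median -0.24). The first list had 1 DEG without WD mouse 3 and 1 without CD mouse 3, and the second had 2 without WD mouse 6 and a median of 0.06 without WD mouse 3.

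Some genes kept high by the male growth hormone pattern were among those that fell most. Of 19 male-biased genes listed after the values were seen, 5 fell, 10 were lower without passing and 4 were higher without passing. Serpina1e, a male-biased antitrypsin of mouse liver (chr12:103946931-103958975), had 3691.0, 6462.6, 991.8, 1512.1 and 2518.8 CPM on CD. On WD its levels were 148.2, 20.4, 580.6, 18.7, 17.3 and 694.5 CPM in mice 1 to 6. No WD mouse reached the lowest CD mouse, but the WD mice fell into a wide range, and the 28.8-fold fall (log2 -4.85, SE 0.69, adjusted p = 4.2e-07) lay between -5.45 and -4.38 on the log2 scale when 1 mouse was left out. Mup12, of the urinary pheromone carriers, had 28.1, 51.2, 11.1, 30.3 and 54.7 CPM on CD and 1.56, 2.88 and 6.35 CPM on WD, a 10.2-fold fall with no overlap (log2 -3.35, SE 0.53, adjusted p = 4.7e-06, or 0.61 without a filter on low counts). Of 21 Mup genes tested 2 fell and 17 were lower without passing (median -1.18), and 1 to 3 fell with 1 mouse left out (1 without WD mouse 3). The second, Mup10, was below 1 CPM in every mouse (adjusted p = 0.037), and its call was lost without any of 8 mice, with an adjusted p of up to 0.11. Mup3, with most of the reads of the family, had 4871.8 ± 550.3 and 3133.4 ± 830.9 CPM (log2 -0.67, SE 0.50, adjusted p = 0.45). Mup and Serpina1 genes are close copies of each other, so reads could be split or lost between members.

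The growth hormone and IGF list of 16 genes had 1 that rose and 3 that fell (median -0.18), or 1 that fell without any of CD mice 1, 2 and 5 and WD mice 4 and 5. Besides Serpina1e, Hsd3b5, a male-biased steroid dehydrogenase, had 165.1, 145.6, 75.2, 79.2 and 211.7 CPM on CD and 3.31, 20.8 and 110.7 CPM on WD. The highest WD mouse lay within the CD range, and the call (log2 -2.98, SE 0.92, adjusted p = 0.028) was lost without any of 6 mice, with an adjusted p of up to 0.083, and with edgeR (adjusted p = 0.084) and DESeq2 (adjusted p = 0.064). Bcl6, a repressor that keeps female-biased genes low in males, fell from 61.9 ± 21.6 to 20.6 ± 10.7 CPM without overlap, at an adjusted p of 0.049 that rose to as much as 0.12 without any of 8 mice. Igfbp3, the main carrier of circulating IGF1, rose from 34.0 ± 4.48 to 51.3 ± 2.96 CPM (log2 0.60, SE 0.15, adjusted p = 0.0045). Serpina3k, an abundant secreted serpin, fell from 4479.8 ± 1092.8 to 2208.5 ± 918.9 CPM with overlapping ranges (log2 -1.09, SE 0.20, adjusted p = 9.7e-05). It shares exons on the same strand with Serpina3m.

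**Figure D3:**
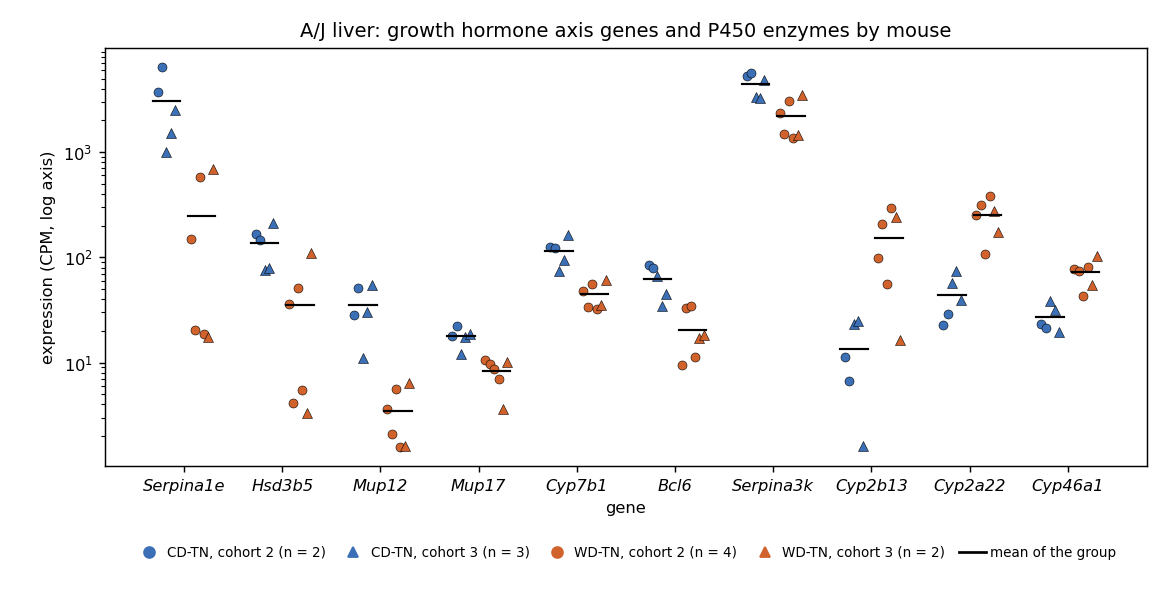
Hormone-responsive and cytochrome genes in each A/J mouse, in CPM on a log axis, with cohorts by marker and bars at the mean. Serpina1e and Mup12 lie lower in every WD mouse, Cyp2a22 higher in every WD mouse, and Cyp2b13 overlaps in CD mice 3 and 4 and WD mouse 6.

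Some cytochrome P450 genes of drug and steroid metabolism rose. Of the 22 Cyp2b, Cyp2c and Cyp3a genes 4 rose and none fell (median 0.38). Cyp2b13, a steroid hydroxylase that is higher in females, had 11.3, 6.71, 23.0, 25.0 and 1.62 CPM on CD and 98.3, 208.6, 56.1, 293.0, 241.3 and 16.3 CPM in WD mice 1 to 6. WD mouse 6 lay within the CD range, and the 11.3-fold rise (log2 3.50, SE 0.39, adjusted p = 1.3e-10) was 2.85 on the log2 scale without CD mouse 5. Cyp3a11, the main inducible enzyme of its family, rose from 2371.4 ± 647.7 to 5226.3 ± 1634.2 CPM (log2 1.11, SE 0.29, adjusted p = 0.0079), and WD mouse 3, at 2919.4 CPM, lay within the CD range. Cyp2a22, outside the list, had 22.8, 28.9, 56.6, 73.4 and 39.7 CPM on CD and 106.6, 264.2 and 384.8 CPM on WD, a 5.74-fold rise with no overlap (log2 2.52, SE 0.30, adjusted p = 2.4e-09). Close relatives in these families may share reads. Of 28 conjugating enzymes 1 rose, a share below the 4.39% of all genes. It was Gsta2, a glutathione transferase (2.21 ± 0.525 to 11.5 ± 4.85 CPM, log2 2.26, SE 0.52, adjusted p = 0.002). Of 16 targets of NRF2, the sensor of electrophiles, 3 rose and none fell (median 0.13; 1 rose without CD mouse 5), among them Ephx1, microsomal epoxide hydrolase (146.7 ± 8.08 to 268.9 ± 46.7 CPM, log2 0.86, SE 0.16, adjusted p = 9.5e-05). Nqo1, a quinone reductase, rose by 0.88 (SE 0.26, adjusted p = 0.018) and lost its call without either of 2 mice (adjusted p of up to 0.058).

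Some genes of glucose output fell, in mice that the paper describes as fasted in the morning before sacrifice. Of 19 gluconeogenic and insulin-responsive genes 5 fell and none rose (median -0.20), or 3 fell without any of CD mouse 1, WD mouse 3 and WD mouse 6. G6pc, glucose-6-phosphatase, which releases glucose from the liver, had 894.3, 1015.3, 437.9, 651.4 and 814.3 CPM on CD and 112.9, 161.4 and 314.8 CPM on WD, a 4.19-fold fall with no overlap (log2 -2.07, SE 0.42, adjusted p = 4.0e-04). Ppp1r3c, a glycogen-targeting subunit of protein phosphatase, fell from 85.1 ± 9.39 to 32.7 ± 18.1 CPM (log2 -1.51, SE 0.41, adjusted p = 0.0095), and Igfbp2, a binding protein of IGFs, from 591.5 ± 114.1 to 286.5 ± 118.8 CPM (log2 -1.12, SE 0.23, adjusted p = 5.0e-04). Igfbp2 overlapped between the diets through WD mouse 3, at 479.1 CPM, and Ppp1r3c did not overlap. Pck1, the enzyme that makes phosphoenolpyruvate, had 1468.5 ± 332.9 and 985.4 ± 385.7 CPM and did not pass the test (log2 -0.64, SE 0.34, adjusted p = 0.24). Of 18 hepatokines, hormones secreted by the liver, 6 fell and none rose (median -0.24), and 1 rose without any of WD mouse 3, WD mouse 5 and CD mouse 3. Enho, which encodes adropin, had 38.3, 48.6, 40.9, 43.0 and 34.3 CPM on CD and 13.1 ± 9.96 CPM on WD (4.83 to 31.3 CPM), with no overlap (log2 -1.94, SE 0.28, adjusted p = 7.8e-07). Its exons overlap on the opposite strand those of Dnaic1, a dynein chain of cilia, which fell 12.4-fold from 12.8 ± 2.84 to 1.41 ± 1.45 CPM (log2 -3.64, SE 0.38, adjusted p = 1.9e-11), so the pair may share reads. Fgf21, a fasting and stress hormone, had 22.6, 24.6, 5.34, 11.4 and 21.4 CPM on CD and 2.28, 3.65 and 8.38 CPM on WD (log2 -1.95, SE 0.56, adjusted p = 0.016, or 0.053 without CD mouse 2). Ahsg, fetuin-A, fell from 12867.7 ± 1361.3 to 8121.1 ± 1245.8 CPM without overlap (log2 -0.67, SE 0.11, adjusted p = 1.7e-05).

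Some hepatocyte-defining genes fell by small amounts. Of 20 hepatocyte identity genes 7 fell, and of the 13 that did not pass 9 were lower and 4 higher (median -0.32). Alb had 184302.1, 178038.7, 172115.3, 172941.1 and 154147.3 CPM on CD and 110473.7, 117444.6 and 130642.3 CPM on WD (log2 -0.55, SE 0.11, adjusted p = 2.0e-04, or 0.98 without a filter on low counts). Foxa3, a liver transcription factor, fell by 0.78 (SE 0.18, adjusted p = 0.0016), and Serpina1a and Serpina1c, antitrypsins, by 0.61 and 0.70 (SE 0.17 and 0.15, adjusted p = 0.014 and 0.0012). All 4 were lower in every WD mouse than in every CD mouse. Hnf4a, the master factor of hepatocytes, had 593.0 ± 62.3 and 502.6 ± 30.1 CPM and did not pass the test (log2 -0.23, SE 0.13, adjusted p = 0.27). In bulk liver, fewer cells of a type and less RNA per cell cannot be told apart. Among 15 periportal genes 4 fell and none rose (median -0.36; 2 fell without CD mouse 1 or CD mouse 3), and among 17 pericentral genes 2 fell (median -0.09; 1 without CD mouse 5). Of 22 genes of the endoplasmic reticulum chaperones and the unfolded protein response 7 fell and none rose (median -0.38). The count was 4 without WD mouse 3 or WD mouse 6 and 2 without CD mouse 2 or WD mouse 4. Among the 7 were Calr, calreticulin (934.1 ± 107.0 to 683.0 ± 64.1 CPM, log2 -0.45, SE 0.11, adjusted p = 0.0035), and Ern1, the stress sensor IRE1 (log2 -0.58, SE 0.16, adjusted p = 0.011).

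Ribosomal protein genes shifted as a block by a small amount. Of 77 cytosolic ribosomal protein genes 40 fell and the other 37 were lower without passing (median -0.21, range -0.34 to -0.08). Rps27a, which encodes ubiquitin fused to a small subunit protein, had 102.5 to 110.7 CPM on CD and 82.2 to 95.3 CPM on WD (log2 -0.31, SE 0.06, adjusted p = 4.2e-04). The list's count ran from 24, without CD mouse 3, to 71 over the alternatives, always downward, with a median of -0.24 to -0.18. None of 77 nuclear genes of the respiratory chain and ATP synthase was a DEG with limma-voom (median -0.01; 9 had an unadjusted p below 0.05, and edgeR gave 0 and DESeq2 gave 1). Of the 13 mitochondrially encoded transcripts mt-Co2 and mt-Atp6, subunits of cytochrome oxidase and of the ATP synthase, passed the test, by 0.54 and 0.47 (adjusted p = 0.012 and 0.022), at low counts of 14.3 ± 4.11 and 19.1 ± 4.99 CPM on CD. Both have near-identical nuclear copies that could take their reads, and the calls were lost without either of 2 mice for mt-Co2 and any of 4 for mt-Atp6 (adjusted p of up to 0.063 and 0.093). With cohort within strain as a covariate mt-Atp6 also lost its call (adjusted p = 0.078).

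Amino acid and methyl group metabolism moved in both directions. Of 30 genes of amino acid breakdown and the urea cycle 3 rose and 6 fell (median -0.04). Without WD mouse 3 these counts were 2 and 3, without WD mouse 4 or CD mouse 3 the falls were also 3, without CD mouse 1 they were 1, and the rises were 1 without any of 5 mice (WD mice 1, 2 and 4, CD mice 4 and 5). Of 20 genes of methionine and folate metabolism 1 rose (0 without CD mouse 1, 2 without WD mouse 5) and 3 fell (median -0.03). Gnmt, which disposes of surplus methyl groups, fell from 981.9 ± 127.5 to 653.1 ± 80.6 CPM without overlap (log2 -0.59, SE 0.13, adjusted p = 0.0016), and Cbs, which draws homocysteine toward cysteine, from 417.5 ± 53.3 to 285.7 ± 40.0 CPM (log2 -0.55, SE 0.10, adjusted p = 1.2e-04). Mthfd1l, a mitochondrial folate enzyme, rose from 1.42 ± 0.444 to 3.78 ± 0.835 CPM without overlap (log2 1.44, SE 0.41, adjusted p = 0.016, or 0.08 without CD mouse 1). Prodh, which opens proline breakdown, rose by 0.76 (SE 0.18, adjusted p = 0.0024). Of 17 integrated stress response genes 2 rose and 2 fell (median 0.20), or 1 fell without any of 5 mice, WD mouse 3 among them. The factor itself, Atf4, fell from 70.2 ± 2.94 to 52.7 ± 5.29 CPM (log2 -0.42, SE 0.11, adjusted p = 0.0097), and Chac1, a glutathione-degrading target, rose from 1.91 ± 0.630 to 5.35 ± 1.42 CPM (log2 1.48, SE 0.42, adjusted p = 0.013). Neither gene overlapped between the diets.

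Some matrix and macrophage genes rose past the test, beside 4.39% of all genes. Of 42 extracellular matrix genes 4 rose, none fell and 35 were higher without passing (median 0.50). Their summed level was 4037.9 to 4561.9 CPM on CD, 3678.1 to 4046.3 CPM in 5 WD mice and 4747.8 CPM in WD mouse 3, so those 5 lay at or below the low end of the CD range. A sum is weighted toward the most abundant genes, and only 3 of the 42 were lower, so the sum does not describe most genes of the list. Col3a1, fibrillar collagen III, had 14.4, 11.1, 11.1, 11.8 and 11.8 CPM on CD and 23.7, 32.2 and 43.6 CPM on WD, with no overlap (log2 1.44, SE 0.39, adjusted p = 0.0093). Col14a1, a fibril-associated collagen, rose from 71.7 ± 10.1 to 109.2 ± 6.87 CPM (log2 0.62, SE 0.13, adjusted p = 9.6e-04), and Col16a1, a minor collagen, from 1.50 ± 0.266 to 2.69 ± 0.656 CPM (log2 0.82, SE 0.25, adjusted p = 0.025, lost without either of 2 mice at up to 0.1). Mmp12, macrophage elastase, rose 9.32-fold from 0.739 ± 0.255 to 7.83 ± 4.55 CPM without overlap (log2 3.22, SE 0.93, adjusted p = 0.016). Its exons overlap those of Mmp1b. Col1a1, the main scar collagen, had 2.11 to 2.77 CPM on CD and 5.23 to 17.7 CPM on WD, with no overlap, and missed the threshold (log2 1.94, SE 0.72, adjusted p = 0.075). Timp1, an inhibitor of matrix proteases, stayed at or below 1.02 CPM (log2 2.26, SE 0.91, adjusted p = 0.11). The same list had 8 DEGs higher with edgeR, 9 with DESeq2 and 19 in a fit of the A/J mice alone. Of 14 stellate cell genes 2 rose (median 0.31), or 1 to 3 with 1 mouse left out and 1 without WD mouse 3. Among the 2 was Lrat, which stores retinol in these cells (14.3 ± 2.78 to 23.3 ± 1.60 CPM, log2 0.72, SE 0.17, adjusted p = 0.0024).

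Of 18 genes of activated and lipid-associated macrophages 4 rose and 1 fell (median 0.51), and edgeR and DESeq2 gave 6 and 9 that rose. Itgax, the integrin CD11c, had 0.532, 1.01, 0.586, 1.20 and 1.01 CPM on CD and 1.58, 3.12 and 6.66 CPM on WD (log2 1.91, SE 0.53, adjusted p = 0.012). Cd63, a lysosomal tetraspanin, rose from 3.26 ± 0.555 to 9.48 ± 2.26 CPM (adjusted p = 0.03, lost without any of 6 mice at up to 0.073). Gpnmb and Trem2, glycoprotein and lipid receptors of such macrophages, were higher in every WD mouse without passing the test. Gpnmb had 0.232 ± 0.0407 CPM on CD and 6.14 ± 2.95 CPM on WD (log2 4.52, SE 1.58, adjusted p = 0.056), and Trem2 0.116 to 0.391 and 0.747 to 2.10 CPM (log2 2.33, SE 0.81, adjusted p = 0.055). Fabp5, a fatty acid binding protein that hepatocytes also express, fell from 24.3 ± 12.7 to 6.86 ± 5.43 CPM (log2 -1.96, SE 0.46, adjusted p = 0.0022). The summed level of the 18 genes was 623.4 to 763.6 CPM on CD and 717.8 to 936.0 CPM on WD, so the diets overlapped. None of 14 Kupffer cell genes was a DEG with limma-voom, edgeR or DESeq2 (median 0.21; 3 had an unadjusted p below 0.05), and 1 fell without WD mouse 3 or WD mouse 6.

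Lymphoid and antigen presentation markers were high in 1 WD mouse. The 9 MHC class II genes summed to 171.2 to 388.0 CPM on CD and to 1326.5 CPM in WD mouse 3, against 262.4 to 422.8 CPM in the other 5 WD mice, and no gene of the list was a DEG with limma-voom (6 had an unadjusted p below 0.05, edgeR gave 5 and DESeq2 6, and limma-voom without WD mouse 6 gave 2). The 13 B and plasma cell genes summed to 245.3 CPM in WD mouse 3, and to 35.8 to 68.3 CPM in the other WD mice, within or below the CD range of 48.8 to 80.3 CPM (0 DEGs with each of the 3 tools, 1 unadjusted p below 0.05). The 18 genes of monocytes, neutrophils and general leukocytes summed to 568.0 CPM in that mouse and to 227.0 to 301.2 CPM in the others (CD 201.5 to 253.2 CPM). Of the 18 genes 1 was a DEG with all mice, 5 without WD mouse 6 and 0 without any other mouse, and T and NK cell genes gave 0 of 19 with each tool (median 0.18; 1 unadjusted p below 0.05). What these values contribute to the results below was not tested.

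Among 24 acute phase genes 2 rose and 2 fell (median 0.19). Without WD mouse 3 these counts were 1 and 4 (median 0.12), and without any other 1 mouse 2 or 3 rose and 0 to 1 fell. Lcn2, lipocalin 2, had 4.71, 7.62, 5.30, 5.21 and 5.61 CPM on CD and 27.6, 32.6, 202.6, 48.7, 18.6 and 13.2 CPM in WD mice 1 to 6. Every WD mouse was above every CD mouse (log2 2.68, SE 0.70, adjusted p = 0.0073), and WD mouse 3 was the highest by a wide gap. Orm3, an acid glycoprotein with close paralogs, had 0.912 to 1.53 CPM on CD and 2.91 to 24.9 CPM on WD (log2 2.54, SE 0.74, adjusted p = 0.018, or 0.054 without WD mouse 3). Saa1, serum amyloid A, had 14.4 to 23.8 CPM on CD and 23.4 to 97.8 CPM in 5 WD mice, with 411.9 CPM in WD mouse 3 (adjusted p = 0.17). Of 24 chemokine and receptor genes 2 rose and none fell (median 0.72), a share near the 9.03% of all genes in either direction, beside 4.39% higher. Ccl2, which attracts monocytes, rose from 0.644 ± 0.156 to 1.65 ± 0.560 CPM without overlap (log2 1.32, SE 0.43, adjusted p = 0.035), and the call was lost without any of 7 mice, at up to 0.11. Neither of the 2 remained a DEG without WD mouse 3, and the list gave 0 to 5 that rose with 1 mouse left out, 5 without WD mouse 6.

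Of 30 interferon-stimulated genes 3 rose and 1 fell (median 0.24). Without WD mouse 3 these counts were 1 and 1 (median 0.08), and 1 rose as well without any of CD mice 1, 2, 3 and 5 and WD mouse 4. None fell without WD mouse 2, WD mouse 4 or CD mouse 5. Ifi27l2b, a mitochondrial interferon-induced protein, had 2.54, 1.53, 1.24, 1.45 and 1.12 CPM on CD and 6.23, 13.1 and 17.3 CPM on WD, with no overlap (log2 2.97, SE 0.53, adjusted p = 6.0e-05). Gbp2, a guanylate-binding protein, had 4.87 to 7.90 CPM on CD and 31.1 CPM in WD mouse 3, against 6.39 to 11.6 CPM in the other WD mice, and its adjusted p of 0.039 was 0.23 without that mouse and 0.086 with cohort within strain as a covariate. Ubd, the ubiquitin-like FAT10, rose from 1.03 ± 0.463 to 9.00 ± 8.80 CPM, higher in every WD mouse and highest in WD mouse 3, at 26.5 CPM (log2 2.86, SE 0.60, adjusted p = 6.8e-04).

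**Figure D4:**
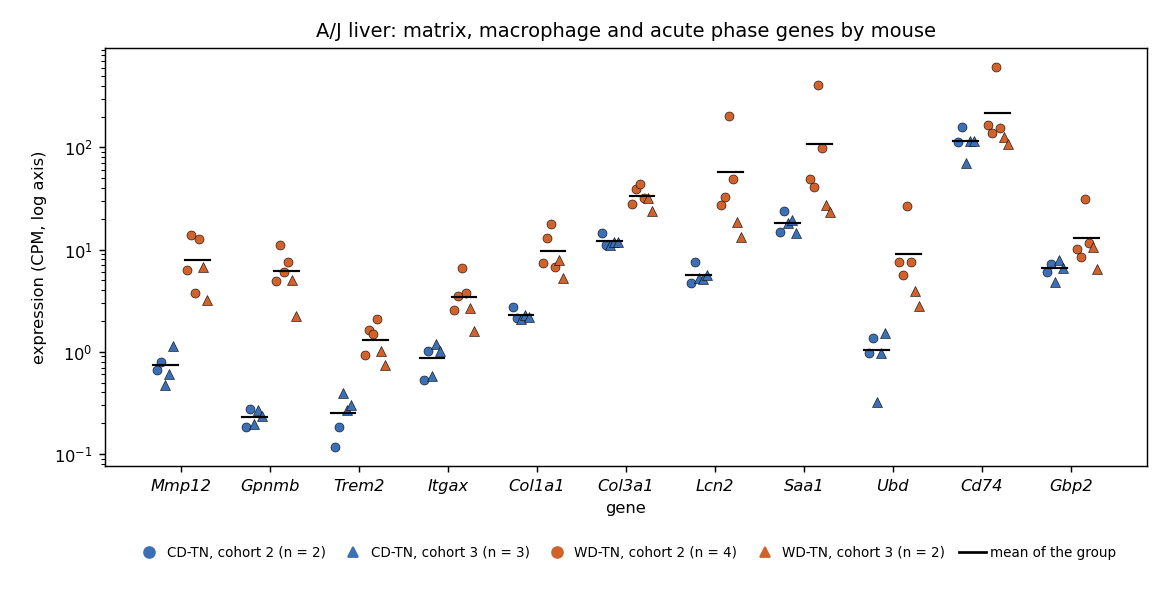
Matrix, macrophage and inflammatory genes in each A/J mouse, in CPM on a log axis, with cohorts by marker and bars at the mean. Lcn2, Saa1 and Cd74 show WD mouse 3 far above the other WD mice, at 202.6, 411.9 and 613.1 CPM, and Col3a1 shows both diets apart without it standing alone.

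Some genes of cell division rose. Of 30 cell cycle genes 6 rose, none fell and 23 were higher without passing (median 0.74; 3 rose without CD mouse 1), and the list summed to 105.5 to 117.4 CPM on CD and 142.6 to 198.4 CPM on WD with no overlap. Tk1, thymidine kinase, had 7.79, 8.44, 21.6, 16.9 and 13.2 CPM on CD and 16.9, 26.7 and 31.1 CPM on WD, and the ranges overlapped (log2 0.97, SE 0.21, adjusted p = 8.3e-04). Its exons overlap those of Afmid. E2f1, a factor that drives entry into S phase, rose from 2.55 ± 0.567 to 4.36 ± 0.600 CPM (log2 0.78, SE 0.18, adjusted p = 0.0024), and Mcm2, of the replication helicase, from 3.19 ± 0.446 to 5.41 ± 0.801 CPM (log2 0.75, SE 0.22, adjusted p = 0.019, or 0.059 without CD mouse 1). Both were higher in every WD mouse. Mki67, the marker of cycling cells, had 1.68 ± 0.530 and 3.50 ± 0.914 CPM (log2 1.07, SE 0.48, adjusted p = 0.16). None of 15 genes of the p53 and senescence response was a DEG with any of the 3 tools (median -0.05; 1 unadjusted p below 0.05).

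Clock and immediate early genes respond to the hour and to handling. They were checked because the paper gives an afternoon window for the sacrifice, but no hour for single mice. Of 19 clock genes 1 rose and 2 fell (median 0.12), and of 16 immediate early genes 1 rose and 1 fell (median -0.35). Without WD mouse 3 these counts were 0 and 1, and 1 and 0, and without WD mouse 5 the clock list had 4 that rose. When any of 9 mice was left out no clock gene rose. Arntl, the core clock factor BMAL1, had 15.8, 8.65, 8.12, 4.40 and 4.18 CPM on CD and 1.15 to 1.50 CPM in 5 WD mice, with 7.84 CPM in WD mouse 5. Its call (log2 -2.01, SE 0.62, adjusted p = 0.026) was lost without any of 6 mice, at up to 0.096. Clock, its partner, fell by 0.63 (SE 0.16, adjusted p = 0.0049), and WD mouse 5, at 43.2 CPM, was again within the CD range. Egr1, an immediate early factor, had 18.5 to 113.2 CPM on CD and 5.60 to 11.8 CPM in 5 WD mice, with 44.0 CPM in WD mouse 5 (log2 -2.32, SE 0.73, adjusted p = 0.031, lost without any of 7 mice at up to 0.1). Their part in other changes was not tested. Markers of other tissues and of cholangiocytes and sinusoidal endothelium gave 1 higher and 1 lower of 11, 0 and 2 of 12, and 1 and 1 of 15, the last 1 and 0 without WD mouse 3. With 1 mouse left out these lists gave 1 higher and 0 to 2 lower, 0 and 1 to 2, and 0 to 1 and 0 to 1. Tff3, a trefoil peptide in the cholangiocyte list, had the largest of these changes, from 20.0 ± 6.45 to 3.96 ± 4.26 CPM (log2 -2.85, SE 0.43, adjusted p = 1.5e-06).

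The largest changes outside the lists were of the same order. Adam11, a catalytically inactive metalloprotease relative known from the nervous system (chr11:102761439-102780262), had 19.0, 13.9, 25.6, 14.4 and 12.4 CPM on CD and 95.2, 115.5 and 131.0 CPM on WD, a 6.98-fold rise with no overlap (log2 2.80, SE 0.20, adjusted p = 1.0e-18). Adgrf1, an adhesion G protein-coupled receptor, fell from 5.66 ± 1.79 to 1.22 ± 1.02 CPM (log2 -2.52, SE 0.48, adjusted p = 1.6e-04). Tcf24, a basic helix-loop-helix factor, fell from 25.8 ± 7.40 to 7.57 ± 3.15 CPM (log2 -1.81, SE 0.24, adjusted p = 1.2e-07), and Zbtb7c, a zinc finger factor, from 8.86 ± 4.80 to 1.88 ± 0.791 CPM (log2 -2.14, SE 0.44, adjusted p = 4.9e-04). The diets did not overlap for any of these 4 genes, but the largest changes were picked only among genes without overlap. Their lack of overlap was thus set by the choice.

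The diet effect was also estimated within each cohort, with 2 CD and 4 WD mice in cohort 2 and 3 CD and 2 WD mice in cohort 3. Cohort 2 gave 906 DEGs (4.74% of genes; 394 higher, 512 lower) and cohort 3 gave 29 (0.152%; 22 higher, 7 lower). The difference between the cohorts passed the test for 0 genes (0%) with limma-voom and for 0 with edgeR, and 678 genes had an unadjusted p below 0.05. Cd36 rose by 2.95 (SE 0.36, adjusted p = 1.0e-08) in cohort 2 and by 2.60 (SE 0.37, adjusted p = 4.2e-06) in cohort 3, and Adam11 rose in each as well (adjusted p = 8.4e-11 and 3.3e-09). Sqle fell by 3.32 (SE 0.55, adjusted p = 3.2e-05) in cohort 2 and by 2.50 (SE 0.62, adjusted p = 0.065) in cohort 3, Serpina1e by 6.01 (SE 1.03, adjusted p = 7.6e-05) and 3.83 (SE 1.00, adjusted p = 0.11), and Cyp7a1 rose by 3.04 (SE 0.85, adjusted p = 0.022) in cohort 2 and had 0.74 (SE 0.93, adjusted p = 0.995) in cohort 3. The median of the cholesterol synthesis list was -1.23 in cohort 2 and -0.62 in cohort 3. For none of these genes did the difference between the cohorts pass the test.

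The A/J diet effect was set against the mean diet effect of the other 6 strains in the same fit, which tests the difference itself. It differed for 89 genes (0.466%), more positive in A/J for 51 and more negative for 38. By the labels, DBA/2J and WSB/EiJ share no cohort number with A/J, and the remaining strains, C57BL/6J among them, share only a part. A difference between strains and one between cohorts therefore cannot be fully told apart. Cd36 rose by 2.81 in A/J and by 1.40 on average in the others, a difference of 1.41 (SE 0.26, adjusted p = 9.3e-04). Cyp46a1 rose by 1.42 in A/J against a mean of -0.27 (difference 1.69, SE 0.26, adjusted p = 4.6e-05). These genes passed with any 1 A/J mouse left out. Cyp2a22 rose by 2.52 against 0.82 (difference 1.70, SE 0.36, adjusted p = 0.0073, or 0.051 without CD mouse 1). In C57BL/6J alone the diet effects of Cd36, Cyp46a1 and Cyp2a22 were 1.87, 1.14 and 1.69. For these genes the difference between A/J and C57BL/6J did not pass the test (limma-voom, adjusted p = 0.16, 0.87 and 0.51). Serpina1e fell by 4.85 against 0.70, a difference of -4.15 (SE 0.73, adjusted p = 4.6e-04), and Serpina3k had -1.09 in A/J against -0.06 (difference -1.03, SE 0.22, adjusted p = 0.0067). Mup12 had -3.35 in A/J and 0.83 on average elsewhere (difference -4.18, SE 0.57, adjusted p = 2.1e-06), and Mup17, another urinary protein, -1.15 and 1.50 (difference -2.65, SE 0.51, adjusted p = 0.002). The effects of the 2 genes in A/J and in that mean had opposite signs, although Mup17 did not pass the test in A/J itself (adjusted p = 0.11). C57BL/6J is part of that mean, with effects of 2.29 for Mup12 and 6.27 for Mup17. Its sign thus need not hold in each of the other strains. The median of the 21 Mup genes was -1.18 in A/J and 0.78 for that mean.

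Nat8, an acetyltransferase of cysteine conjugates, and Tifa, an adaptor of TRAF6 signalling, were more positive in A/J by 1.69 (SE 0.40, adjusted p = 0.029) and 1.18 (SE 0.29, adjusted p = 0.04). Zbtb7c was more negative by 2.17 (SE 0.49, adjusted p = 0.019), and Bach2, a transcriptional repressor whose exons overlap those of Bach2os, by 1.23 (SE 0.32, adjusted p = 0.046). These 4 tests were lost without any of 6, 8, 3 and 8 mice, and that of Tifa also with cohort within strain as a covariate (adjusted p = 0.063).

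The reads of all strains were mapped to the genome of C57BL/6J. Against C57BL/6J alone the diet effect differed for 125 genes (0.654%), more positive in A/J for 73 and more negative for 52. With upper-quartile scaling the counts were 106 and 48 (68.8% against 58.4% more positive). With cohort within strain as a covariate the counts were 102 and 123, or 45.3% more positive, so the majority turned. Cidea had 6.35 in C57BL/6J and -1.22 in A/J, a difference of -7.58 (SE 1.61, adjusted p = 0.0074), with at most 0.125 CPM in any A/J WD mouse. Mup17 had 6.27 in C57BL/6J against -1.15 (difference -7.42, SE 1.02, adjusted p = 3.8e-06), Mup12 2.29 against -3.35 (difference -5.63, SE 0.88, adjusted p = 4.1e-05) and Mup1, also a urinary protein, 2.94 against -1.13 (difference -4.07, SE 0.98, adjusted p = 0.022). The difference passed for 3 of the 21 Mup genes, whose list median was 1.84 in C57BL/6J, and Mup17 and Mup1 are among the 19 that did not fall past the test in A/J itself. C4a, the sex-limited complement protein, had 2.21 in C57BL/6J and -0.50 in A/J (difference -2.71, SE 0.46, adjusted p = 2.0e-04), and Calr 0.17 and -0.45 (difference -0.62, SE 0.14, adjusted p = 0.014). Epb41l1, a cytoskeletal linker, had -1.38 in C57BL/6J and 0.43 in A/J (difference 1.81, SE 0.29, adjusted p = 7.3e-05), and Ccnd1, cyclin D1, -1.19 and 0.71 (difference 1.91, SE 0.39, adjusted p = 0.0038). Igha, an antibody chain of plasma cells, had -3.64 in C57BL/6J and 0.08 in A/J (difference 3.72, SE 0.64, adjusted p = 2.6e-04), and in A/J its level was highest in WD mouse 3, at 39.9 CPM. Of the 15 genes named for this comparison 11 passed with any 1 A/J mouse left out, and Arhgef16, Blnk, Gsta2 and Serpina3k did not. Both comparisons use the A/J mice described above and share them with each other.

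**Figure D5:**
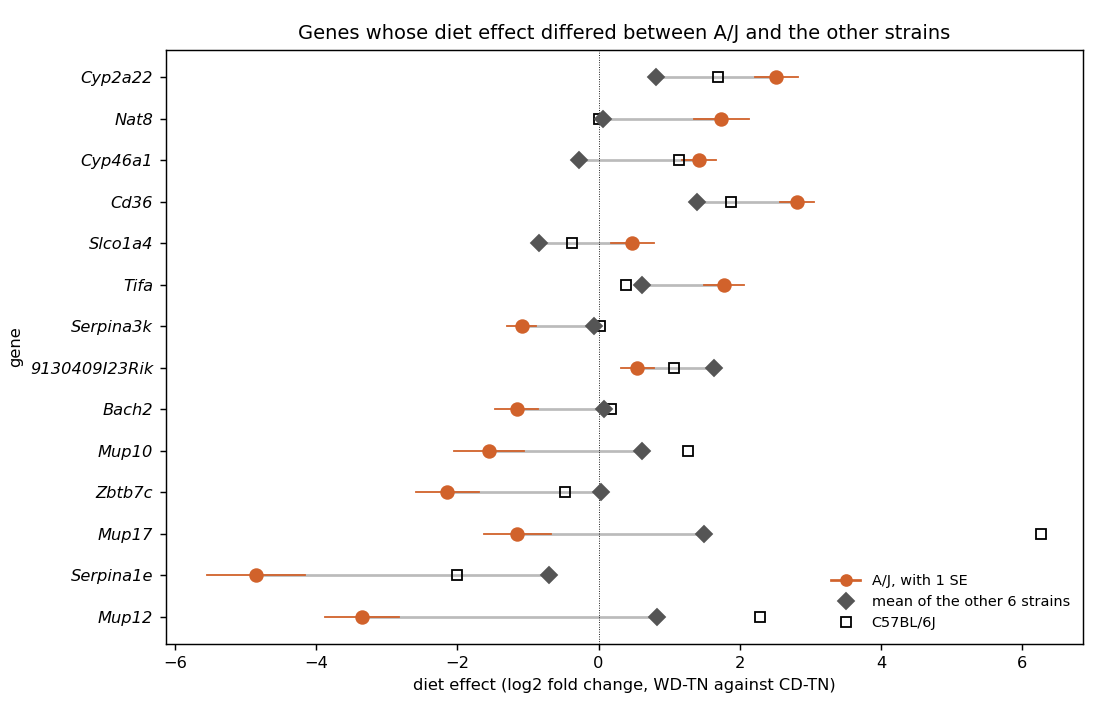
Diet effects of the genes named for the comparison with the other 6 strains, as log2 fold changes of WD over CD, in A/J (circles with 1 SE), in C57BL/6J (squares) and as the mean of the other 6 strains (diamonds). Cd36 in A/J (2.81) lies above the mean of the others (1.40), and Mup12 (-3.35) and Serpina1e (-4.85) lie far below theirs (0.83 and -0.70).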

How the data were processed

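Liver RNA was sequenced by the authors on the BGISEQ-500, mapped with STAR 2.7.1a to GRCm38/mm10 and counted per gene, and they deposited raw counts, whole reads per gene and mouse with no normalization. The annotation release and the strand setting are not given in the sources used here. Of 53465 genes, 53274 had a symbol, and edgeR's filterByExpr (minimum count 10) left 19110. R 4.3.3, edgeR 4.0.16 (TMM) and limma 3.58.1 (voom) were used with a mean for each of the 14 strain and diet groups of all 93 mice, so that the groups share the estimate of the spread. DESeq2 1.42.0 and edgeR's quasi-likelihood test were among the alternatives. P-values were adjusted by Benjamini-Hochberg over all genes tested. The fit was also run on simulated counts with rises set only in A/J WD mice and no cohort effect. That run does not bear on the calls given above.

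The lists and the members were chosen with earlier results of these data known. Named genes were the 12 largest rises and falls without overlap between the diets at a mean log2 CPM of at least 1, up to 4 called members of each list and some set members, and the largest differences from the other strains. Positions came from GENCODE on GRCm38 and promoters from RefSeq. Replicates are separate mice. Depth limits genes with few reads, for which counting error adds to the spread. A few genes that the rule allows are not reported here.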

Additional observations from a re-analysis of the deposited data

Results flagged for a closer look

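Of 244 groups of values tested with Dixon's test at the 95% level (5 CD or 6 WD mice per gene or library measure), 31 held a mouse far from the others, and chance gives about 1 in 20. WD mouse 3 accounted for 9 of them. It was the highest WD mouse for Lcn2 (202.6 CPM, next 48.7), Saa1 (411.9, next 97.8), Cd74 (613.1, next 165.0), Igha (39.9, next 8.30), Ubd (26.5, next 7.57), Gbp2 (31.1, next 11.6), Dnaic1 (4.24, next 1.54) and Tff3 (12.3, next 4.36), and in the share of ambiguous reads (5.67%, next 5.33%). These genes include acute phase, antigen presentation and antibody genes, and the sums of the B cell and MHC class II lists were highest in the same mouse. WD mouse 5 was high for Arntl (7.84 CPM, next 1.50), Egr1 (44.0, next 11.8), Bach2 (12.4, next 7.01), Ppp1r3c (67.7, next 35.4) and Cbs (358.9, next 288.6). WD mouse 6 was high for Srebf1 (696.9 CPM) and low for Igfbp3 (45.4), and WD mouse 2 was high for Col16a1 (3.93).

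Among CD mice, mouse 1 was high for Col1a1 (2.77 CPM), Col3a1 (14.4) and Ifi27l2b (2.54) and low for Mthfd1l (0.647). CD mouse 2 was high for Srebf2 (65.9 CPM) and Cidec (6.02) and low for Col16a1 (1.03). CD mouse 3 was high for Chac1 (3.00 CPM) and Srebf1 (517.4), CD mouse 4 low for Igha (4.87) and CD mouse 5 low for Abcg8 (159.8). In library measures, WD mouse 4 had the fewest reads on genes (41232966) and the fewest counted reads (51767249), and CD mouse 5 the most genes detected in its group (15670).

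The diet effect differed between A/J and the mean of the other 6 strains by 1.70 for Cyp2a22, 1.69 for Cyp46a1, 1.69 for Nat8, 1.41 for Cd36, 1.32 for Slco1a4 (an organic anion transporter) and 1.18 for Tifa on the log2 scale, and by -4.18 for Mup12, -4.15 for Serpina1e, -2.65 for Mup17, -2.17 for Zbtb7c, -2.16 for Mup10, -1.23 for Bach2, -1.09 for 9130409I23Rik and -1.03 for Serpina3k (limma-voom, adjusted p below 0.05 for each). With any 1 A/J mouse left out, 6 of these 14 passed every time, namely Cyp46a1, Cd36, Mup12, Serpina1e, Mup17 and Serpina3k. With edgeR, Slco1a4 (adjusted p = 0.054) and 9130409I23Rik (adjusted p = 0.071) did not pass, nor did Tifa with cohort within strain as a covariate (adjusted p = 0.063).

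Against C57BL/6J alone the difference was 3.72 for Igha, 2.26 for Gsta2, 1.93 for Blnk (a B cell adaptor), 1.91 for Ccnd1, 1.90 for Arhgef16 (a guanine nucleotide exchange factor) and 1.81 for Epb41l1, and -7.58 for Cidea, -7.42 for Mup17, -5.63 for Mup12, -4.07 for Mup1, -2.71 for C4a, -2.51 for Gm4956, -2.09 for Hectd2os, -1.11 for Serpina3k and -0.62 for Calr, in the same fit. The exons of Hectd2os, an antisense RNA, overlap those of Hectd2.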

How the results depend on the processing

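Of 84 DEGs named for the diet, 64 passed under every alternative that kept all mice, 65 with any 1 A/J mouse left out, and 55 under all of these, and no named gene turned its direction. Without a filter on low counts 15 lost their call, namely Insig1, Cyp7b1, Acly, Bcl6, Mup12, Mup10, Serpina3k, Alb, Col3a1, Cd63, Ccl2, Lcn2, Gbp2, Egr1 and mt-Atp6, with fold changes within 0.02 of the reported ones, and the cause was not tested. In that limma-voom fit Alb had an adjusted p of 0.98, Mup12 of 0.61 and Cyp7b1 of 0.23, and the others 0.053 to 0.14. In a fit of the A/J mice alone with cohort as a covariate 8 did, among them Mogat1, Vldlr, Hsd3b5 and Clock, and with cohort within strain as a covariate 3 did, Insig1, Gbp2 and mt-Atp6. Sample quality weights gave 3928 DEGs (1904 higher, 2024 lower), and a fit of A/J alone 1276 higher. The count against C57BL/6J was 225 (123 lower) with cohort within strain as a covariate, and edgeR gave 85 lower. In cohort 3 edgeR gave 4 lower. These causes were not tested.

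With each A/J mouse left out in turn, the DEGs numbered 1197 to 1850 (594 to 963 higher, 588 to 894 lower, the last lowest without WD mouse 4). The count against the other 6 strains was 36 to 106 (21 to 70 higher, 13 to 36 lower), 36 without CD mouse 1, 40 without WD mouse 4, 41 and 42 without CD mice 4 and 5, 42 and 47 without WD mice 1 and 2, and 50 without CD mouse 2. Against C57BL/6J it was 71 to 132 (42 to 78 higher, 29 to 59 lower), with 75 and 71 without CD mice 1 and 2. Cohort 2 gave 169 to 910 (51 to 409 higher, 118 to 535 lower), with 169 and 228 without CD mice 1 and 2 and 574 without WD mouse 4. Cohort 3 gave 13 to 39 (9 to 37 higher, 2 to 11 lower), with 19, 14 and 13 without CD mice 3 to 5 and 15 without WD mouse 6. The difference between the cohorts gave 0 to 2 (0 to 1 higher, 0 to 1 lower). Where a cohort was left with 1 mouse on a diet, that mouse was assumed to vary like the others. No paired analysis was possible because mice are numbered in the order of deposition and the labels tie no CD mouse to a WD mouse.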

Other observations

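A pair of lists of genes known to differ between the sexes in mouse liver was drawn up after the values were seen, so it carries no test. Of 19 male-biased genes 5 fell and none rose (Serpina1e, Hsd3b5, Mup12, Cyp7b1 and Susd4), with a median of -0.94 in A/J against 0.00 for the mean of the other 6 strains and 0.19 in C57BL/6J. Of 19 female-biased genes 2 rose and none fell (Cyp2b13 and Cd36), a share near the 9.03% of all genes in either direction, beside 4.39% higher. Their list median was 0.21 in A/J, -0.61 for the mean of the other strains and -0.12 in C57BL/6J. Both lists hold genes named in the report, and both called genes of the female-biased list are among them. The diet effects of A/J enter every one of these comparisons.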
